A study of Homo sapiens with 2 samples.

Results

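The genes described here encode the enzymes and regulators of cholesterol and fatty acid synthesis in OECM1, a long-established cell line from a cancer of the head and neck. They were taken by gene symbol from a list of 26 genes, and every probe set whose platform annotation named 1 of them alone was used. Of the 26 genes, 23 had such a probe set, out of 19775 genes on the array, and together they had 53 probe sets out of 41097. CYP51A1 and FADS1 were named only by probe sets that also carry another gene symbol, and FDFT1 was named by no probe set of the annotation. These 3 genes are not analysed here. The 23 genes were 14 of the sterol branch, 6 of the fatty acid branch and 3 regulators.

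One culture of OECM1 was stably transfected with pmCherry-let7i, a vector for the microRNA let-7i with mCherry, a red fluorescent protein, as its reporter. The control culture carried the empty mCherry vector, which its label spells pmR-mCherry. Both were grown in RPMI medium with fetal bovine serum, and total RNA was hybridised to 1 array a group. Whether the transfected cells were a single clone or a pool is not given in the sources used here. With 1 array a group there was no spread between cultures, no test across samples and no p-value. Every difference below is therefore between 2 arrays and has no replicate check. In bulk RNA, fewer cells that express a gene and less of its RNA per cell cannot be told apart.

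Cells make cholesterol from acetyl-CoA by way of mevalonate, isoprenyl units, squalene and lanosterol, and they make fatty acids from the same acetyl-CoA by way of malonyl-CoA. Both routes are controlled by sterol regulatory element-binding proteins, membrane-bound transcription factors that are carried from the endoplasmic reticulum to the Golgi and cut there when sterols are scarce. SREBF2 encodes the factor that acts mainly on sterol genes, and SREBF1 encodes the factor that acts mainly on fatty acid genes. INSIG1 encodes a protein that holds both factors in the endoplasmic reticulum. The let-7 family represses messenger RNAs that pair with its seed, which is bases 2 to 8. The mature sequence of let-7i, the microRNA of the transfected vector, is shown because it is the agent compared. The level of mature let-7i in these cells was not examined here. Its seed is in capitals, and the bases of the mature sequence lie at chr12:62603691-62603712 on the plus strand of GRCh38.p14 (RefSeq).
hsa-let-7i-5p: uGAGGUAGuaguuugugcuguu

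The stretches that follow lie upstream of the start sites of genes described below and were read from RefSeq promoter windows of GRCh38.p14, which run from 250 bases before to 50 bases after each start. They are shown because sterol genes are known for promoters that pair a sterol regulatory element with a CCAAT box, the site of the factor NF-Y. Capitals mark every match to TCACNCCAC or CCAAT on either strand, so that ATTGG is a CCAAT on the opposite strand. The SREBF2 stretch is at chr22:41832960-41833015 (plus strand), that of HMGCS1 at chr5:43313496-43313579 (minus), that of MVD at chr16:88663160-88663262 (minus), that of SCD at chr10:100346992-100347063 (plus), that of ACLY at chr17:41919029-41919099 (minus) and that of INSIG1 at chr7:155297696-155297724 (plus).
SREBF2: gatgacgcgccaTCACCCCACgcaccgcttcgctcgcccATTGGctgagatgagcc
HMGCS1: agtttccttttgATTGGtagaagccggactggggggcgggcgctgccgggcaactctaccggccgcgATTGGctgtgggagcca
MVD: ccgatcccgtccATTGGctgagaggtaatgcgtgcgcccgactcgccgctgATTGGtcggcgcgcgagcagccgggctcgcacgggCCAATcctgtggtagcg
SCD: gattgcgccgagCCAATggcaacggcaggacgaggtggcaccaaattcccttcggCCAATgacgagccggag
ACLY: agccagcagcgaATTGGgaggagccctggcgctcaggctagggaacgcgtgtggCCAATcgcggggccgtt
INSIG1: cgccggcctcccATTGGttgcggccgcct

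Of the 13 sterol branch genes with a promoter in the table, CYP51A1 included, 12 had a CCAAT in at least 1 promoter, as did 4 of 6 fatty acid branch genes, FADS1 included, and 2 of 3 regulators. Over all 27305 genes of the table the share was 39.7%. At least 2 CCAAT matches stood in 11 of the 18 sterol branch promoters and in 4 of the 10 fatty acid branch promoters, against 10.8% of all 35116 promoters. Windows of one gene can overlap, and the 2 windows of ACLY, both counted, held the same pair of CCAAT matches. TCACNCCAC, a strict form of the sterol regulatory element, was matched in 1.13% of all promoters. Among the members with a promoter in the table it was matched only in SREBF2, starting 133 bases upstream of the start site, with a CCAAT that starts 106 bases upstream. The looser forms of the element were not searched. A match describes letters in the window and says nothing of binding in these cells.

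The 2 branches differed in direction. In the sterol branch 10 of 14 genes were lower with let-7i and 4 higher, with a median log2 ratio (let-7i over empty vector) of -0.21. In the fatty acid branch 5 of 6 genes were higher and 1 lower, with a median log2 ratio of 0.29. The sterol median was 0.50 below the fatty acid median on the log2 scale. All 11140 genes measured on both arrays had a median of 0, with 5570 higher and 5570 lower, because ratios were centred on that median. Measured means a MAS5 signal at or above the floor, which is the median signal of the array (88.0 with the empty vector, 79.5 with let-7i). Each gene was represented by its brightest probe set, and all 23 members were measured on both arrays. Without probe sets that can match more than one transcript, only 2 fatty acid genes were left, with a median of -0.01, and the branch medians then differed by -0.18. Over single probe sets, which include the brightest ones just counted, 19 of 26 measured in the sterol branch were lower and 12 of 14 in the fatty acid branch higher, 4 of the latter being of SCD and 3 of ACLY.

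**Figure D1:**
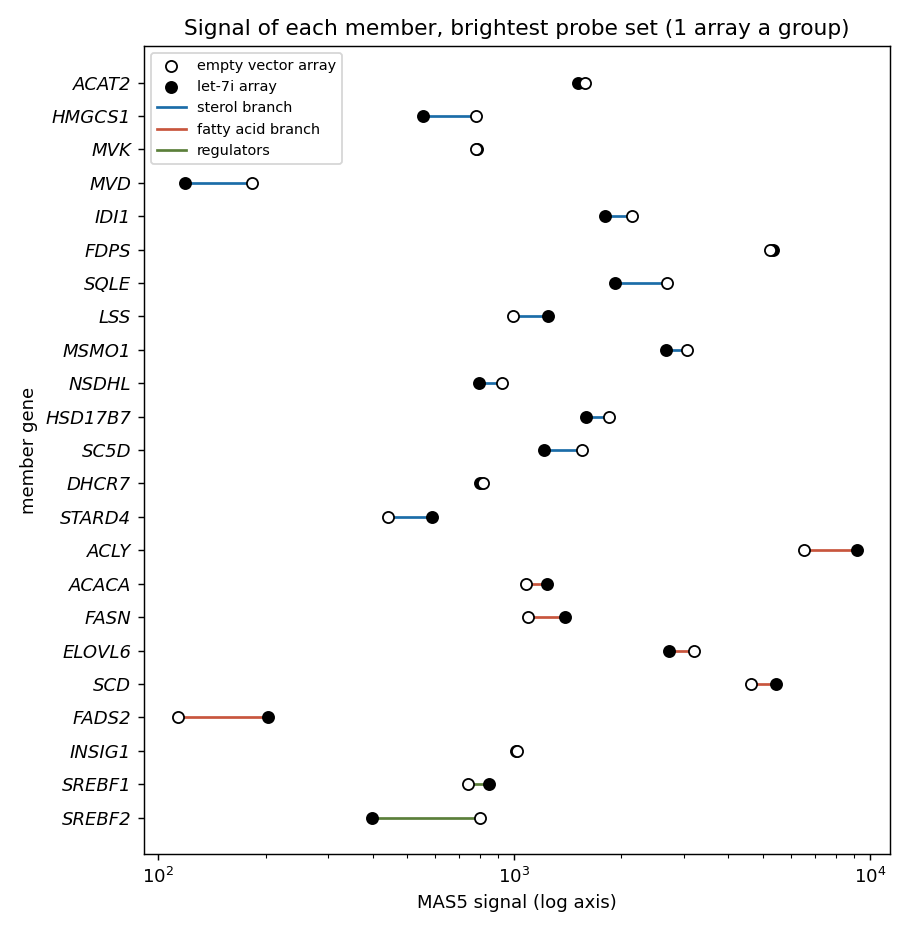
MAS5 signal (x axis, log scale) of the brightest probe set of each of the 23 members (y axis) on the empty vector array (open circles) and the let-7i array (filled circles), joined by a line coloured by branch. The filled circle lies left of the open one in 10 of 14 sterol branch genes and right of it in 5 of 6 fatty acid branch genes.

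The differences were small. At the fold of 1.5 used to pick out single genes, 2 of 23 members (8.70%) were lower, MVD and SREBF2, and 1 (4.35%), FADS2, was higher. Over all genes measured on both arrays, 5.15% were at least 1.5-fold lower and 3.81% at least 1.5-fold higher, so the members' shares were near the background. Only SREBF2 reached 2-fold, at 2.01-fold, and it was under 2-fold in 5 of its 7 alternative settings, in 4 of them with a log2 ratio between -0.9967 and -0.9928. The noise of a single probe set was taken from 5807 genes with over 1 measured probe set and had an SD of 0.25 on the log2 scale, from 0.34 in the dimmest of 4 equal bins of signal to 0.15 in the brightest. It covers probe noise and no variation between cultures. The log2 ratios of SQLE, ACLY, FADS2 and SREBF2 were over 2 of these SDs at their signal. Those are 4 of 23 members (17.4%), against 14.1% of all genes.

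The first enzymes of the sterol branch make mevalonate and turn it into isoprenyl units. HMGCS1, which joins acetyl-CoA and acetoacetyl-CoA into HMG-CoA, read 783 in the control and 553 with let-7i (log2 ratio -0.51). Its other probe set read 746 and 494, a log2 ratio of -0.60. Both probe sets of HMGCS1 were thus lower with let-7i, by 1.42-fold and 1.51-fold.

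MVD, the decarboxylase that yields isopentenyl diphosphate, read 183 and 119 on these arrays and was 1.55-fold lower in its only probe set, but under 1.5-fold with lowess centring and with quantile normalization (log2 ratio -0.52 in both). These signals are dim, and the SD of 1 probe set there was 0.34. The ID of this MVD probe set ends in _s_at, so it can match more than one transcript. IDI1, which interconverts the isoprenyl isomers, read 2142 and 1803, and over its 4 probe sets the log2 ratio ran from -0.32 to -0.13. All 4 probe sets of IDI1 pointed down, though 3 of them, with IDs ending in _x_at, can match more than one transcript.

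The other mevalonate enzymes were level. ACAT2, the thiolase that makes acetoacetyl-CoA, had signals of 1577 and 1509 (log2 ratio -0.07). FDPS, which builds farnesyl diphosphate, had signals of 5243 and 5326 (log2 ratio 0.02). MVK, mevalonate kinase, had signals of 783 and 786 in its brightest probe set, a log2 ratio of 0.00. Its dimmest measured probe set (120 and 210) gave 0.80, and its remaining measured one (269 and 280) gave 0.05. The probe sets of MVK therefore differed, and the brighter pair showed next to no difference between the arrays. Of these 6 mevalonate genes 4 were lower and 2 higher, with a median log2 ratio of -0.16.

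Of the enzymes from squalene to cholesterol 6 of 7 were lower, with a median log2 ratio of -0.22. SQLE, squalene epoxidase, an oxygen-dependent control point of the pathway, read 2696 and 1916, which is 1.41-fold lower (log2 ratio -0.50). Its other measured probe sets read 1106 and 850, 615 and 505, and 178 and 109. All 4 were lower with let-7i, with log2 ratios from -0.70 to -0.29, and the brightest was 3.21 SDs of 1 probe set from 0.

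SC5D, the desaturase that introduces the double bond at the fifth carbon, had signals of 1554 and 1214 (log2 ratio -0.36). Its second probe set was below the floor with let-7i (130 and 79.1) and was at least 1.64-fold lower. NSDHL, a dehydrogenase that helps remove the methyl groups at the fourth carbon, had signals of 927 and 794 in one probe set and 903 and 753 in the other. Its log2 ratios of -0.23 and -0.27 lay close together.

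MSMO1, the oxidase of the same demethylation, had signals of 3058 and 2664 (log2 ratio -0.20). HSD17B7, the ketoreductase of that step, had signals of 1852 and 1596 (log2 ratio -0.22), in a probe set that can match more than one transcript. The 3 demethylation enzymes were thus lower by like amounts, each between 1.15-fold and 1.17-fold in the brightest probe set. These differences were small beside probe noise, at 1.09 (NSDHL), 1.31 (MSMO1) and 1.42 (HSD17B7) SDs of 1 probe set. DHCR7, which reduces 7-dehydrocholesterol to cholesterol, had signals of 817 and 800 in its brightest probe set, a log2 ratio of -0.04, and of 683 and 533 in its second, a log2 ratio of -0.36. The direction of DHCR7 was the same in both, but its size depended on the probe set.

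LSS, which closes the rings of lanosterol, went the other way. It had signals of 992 and 1242 (log2 ratio 0.32), and its second measured probe set (133 and 204) gave 0.61. STARD4, which carries sterols between membranes and makes none, had signals of 441 and 586 (log2 ratio 0.41) in its only probe set. LSS and STARD4 were the sterol branch genes with a positive log2 ratio above 0.1, since FDPS and MVK were near 0.

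**Figure D2:**
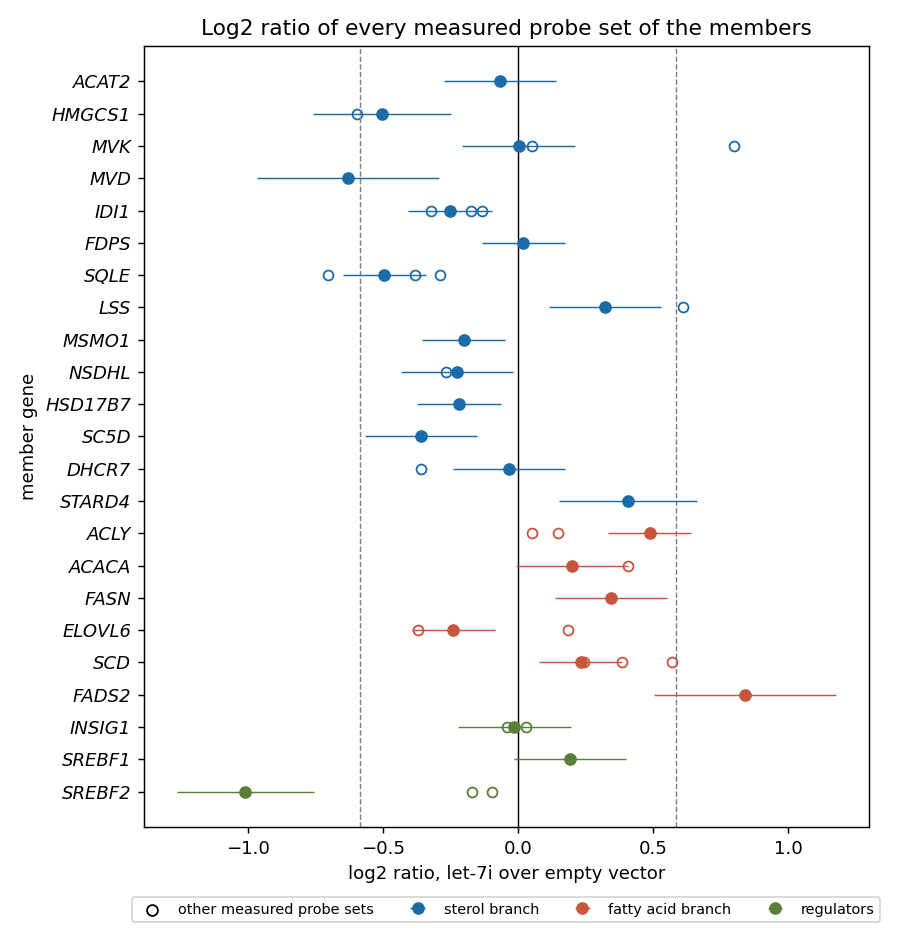
Log2 ratio of let-7i over empty vector (x axis) for every probe set of the 23 members (y axis) that was at or above the floor on both arrays. Filled circles are the brightest probe set of a gene with a bar of 1 SD of a single probe set at that signal, open circles are its other probe sets, and dashed lines mark 1.5-fold. The 4 probe sets of SQLE and the 4 of IDI1 lie left of 0, the 4 of SCD lie right of 0, and those of SREBF2 spread over 0.91.

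In the fatty acid branch ACLY comes first, the lyase that makes cytosolic acetyl-CoA for both routes. It read 6527 and 9166, which is 1.40-fold higher (log2 ratio 0.49) and 3.15 SDs of 1 probe set. Its other probe sets read 2959 and 3072, and 1312 and 1455, with log2 ratios of 0.05 and 0.15. All 3 were higher, but only the brightest by a sizeable amount, and the mean of the 3, centred anew, was 0.25.

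ACACA, the carboxylase that makes malonyl-CoA, had signals of 1078 and 1240 (log2 ratio 0.20), and its dimmer probe set (112 and 149) gave 0.40. FASN, the synthase that builds palmitate, had signals of 1090 and 1387 (log2 ratio 0.34). Its second probe set stayed under the floor on both arrays. The brightest probe sets of ACLY, ACACA and FASN, which lead from citrate to palmitate, thus all had positive log2 ratios, none of them past 1.5-fold, with ACACA and FASN at 0.95 and 1.65 SDs of 1 probe set.

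SCD, which puts the first double bond into stearate and palmitate, had signals of 4618 and 5431 (log2 ratio 0.23). Its other probe sets gave 0.57 (1619 and 2409), 0.24 (857 and 1017) and 0.38 (603 and 789). All 4 were higher. The largest ratio was 3.69 SDs of 1 probe set, while the brightest probe set was at 1.49 and the others at 1.17 and 1.51.

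FADS2, the desaturase that starts the synthesis of polyunsaturated fatty acids, read 113 and 203, which is 1.79-fold higher and the highest log2 ratio of the members (0.84). Both signals are dim, and its second probe set was below the floor on both arrays. ELOVL6, which lengthens palmitate to stearate, was the exception. It had signals of 3201 and 2717 (log2 ratio -0.24), with -0.37 (1434 and 1112) and 0.18 (335 and 381) in its other probe sets. The probe sets of ELOVL6 pointed both ways.

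Most fatty acid genes were represented by probe sets with IDs ending in _s_at, which can match more than one transcript. Without such probe sets only ACACA and ELOVL6 were left, 1 higher and 1 lower, and the branch median was -0.01. The sterol median under that setting was -0.19 over 9 genes. ACAT2, MVD, HSD17B7, SC5D and DHCR7 were not among them.

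**Figure D3:**
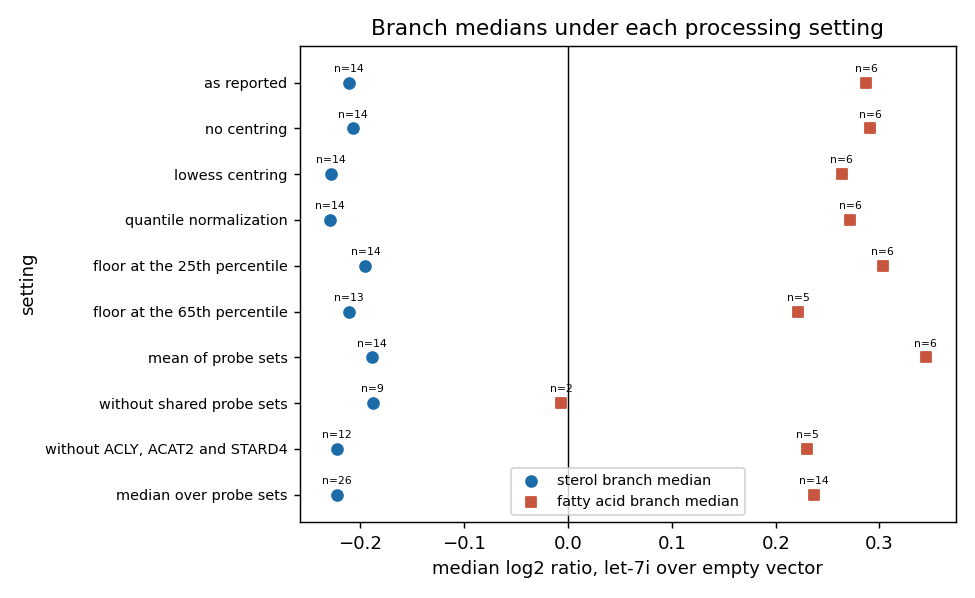
Median log2 ratio (x axis) of the sterol branch (circles) and the fatty acid branch (squares) under the reported setting and 9 alternatives (y axis), with the number of genes, or of probe sets in the last line, printed above each point. The sterol median stays between -0.23 and -0.19, and the fatty acid median is between 0.22 and 0.34 except without shared probe sets, where it rests on 2 genes.

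The regulators gave mixed readings. SREBF2 was represented by 3 probe sets that disagreed in size. The brightest read 801 in the control and 399 with let-7i, which is 2.01-fold lower (log2 ratio -1.01). The second had signals of 443 and 394 (log2 ratio -0.17).

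The third SREBF2 probe set had signals of 356 and 334 (log2 ratio -0.10). All 3 were lower with let-7i, but the last pair differed from 0 by less than the SD of 1 probe set at their signals (0.25 and 0.34). The ratio of the brightest lay 0.84 and 0.91 below those of the other probe sets. Of 1608 genes with exactly 3 measured probe sets, 94 (5.85%) had a spread at least as wide as the 0.91 of SREBF2, and the median spread was 0.37. Those genes were taken at any signal, while the SREBF2 probe sets lay in the dimmer bins, where probe noise was larger. SREBF2 was also looked at because its probe sets disagree, so this share is a description and no test. The mean over the 3 probe sets, centred anew, was a log2 ratio of -0.41, under 1.5-fold, so the 2-fold lower level of SREBF2 rests on 1 probe set. Lowess centring (-0.9928), quantile normalization (-0.9967), the 25th percentile as floor (-0.9944) and the removal of shared probe sets (-0.9957) also left it just under 2-fold.

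SREBF1 had signals of 741 and 848 (log2 ratio 0.19). Its second probe set was under the floor in the control (48.6 and 105) and gave a bound of at least 1.18-fold higher. The 2 factors thus pointed in opposite directions in their brightest probe sets, SREBF2 down and SREBF1 up, the latter within 1 SD of a probe set. INSIG1, itself a well-known target of both factors, had signals of 1017 and 1009 (log2 ratio -0.01). Its other probe sets read 578 and 563, and 401 and 410, with log2 ratios of -0.04 and 0.03. INSIG1 was the steadiest of the members with 3 or more probe sets, with a spread of 0.07.

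**Figure D4:**
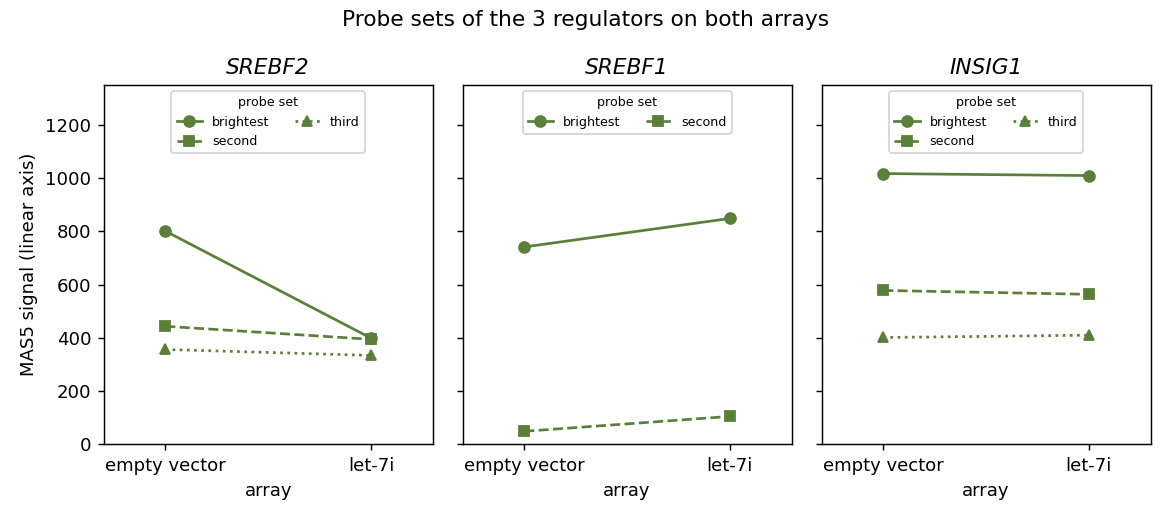
MAS5 signal (y axis, linear scale from 0) of every probe set of SREBF2, SREBF1 and INSIG1 on the empty vector and let-7i arrays (x axis), 1 line a probe set, named by order of brightness. Of the 3 lines of SREBF2 only that of the brightest probe set drops steeply, from 801 to 399, while the lines of INSIG1 are flat.

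Of the 13 members with over 1 measured probe set, 11 had all their probe sets on one side of 0. The exceptions were ELOVL6 and INSIG1. Over all 5807 genes with more than one measured probe set, all lay on one side of 0 in 2961 (51.0%). For the 2 brightest probe sets alone the count was 13 of 13 members, against 64.2% of all these genes. That share was 61.3% in the dimmest of the 4 bins of signal and 68.3% in the brightest. The 13 include MVK (0.00 and 0.05) and INSIG1 (-0.01 and -0.04), whose log2 ratios were near 0 and changed sign between settings.

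The rest of the machinery gave list medians smaller in size than those of the sterol and fatty acid branches, with mixed directions. Differences of single genes were not all smaller. Among 8 measured genes of the other sterol synthesis list, 5 were higher and 3 lower, with a median log2 ratio of 0.02 and none past 1.5-fold. LBR, a sterol reductase of the nuclear envelope, was 1.41-fold higher (4428 and 6261). GGPS1, which draws isoprenyl units off to geranylgeranyl diphosphate, was 1.23-fold lower (2555 and 2083), and FAXDC2 was 1.26-fold lower (668 and 531). TM7SF2, another sterol reductase, named after its value was seen, was below the floor with let-7i (118 and 44.9) and was at least 1.49-fold lower. The median of the 8 measured genes was thus not below 0 as that of the sterol branch was.

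Among 14 measured genes of the other fatty acid synthesis list, 6 were higher and 8 lower, the median log2 ratio was -0.02 and none past 1.5-fold. ELOVL7, an elongase, read 1670 and 1120, just short of the 1.5-fold threshold (log2 ratio -0.58). HACD3, a dehydratase of fatty acid elongation, was 1.47-fold higher (5674 and 8348), with 4 probe sets between 0.11 and 0.55. SCD5, a second stearoyl-CoA desaturase, was 1.28-fold lower (1686 and 1322), opposite in direction to SCD. The higher median of the fatty acid branch was likewise not seen in this list.

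Among 8 measured genes that process or retain the SREBP factors, 5 were higher and 3 lower, and the median log2 ratio was 0.13. ERLIN1, a membrane protein of the endoplasmic reticulum, was higher by 1.55-fold (3534 and 5491) in the brightest probe set, but its second gave a log2 ratio of -0.17. RNF139, a ubiquitin ligase, was 1.34-fold higher (1165 and 1571). SCAP, the escort protein that carries the factors to the Golgi, was 1.19-fold lower (847 and 715).

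The arrays were alike in range and RNA quality. Each had a trimmed mean signal of 500.1, and the control transcripts had 3'/5' ratios of 0.95 and 0.93 (GAPDH) and of 1.21 and 1.26 (ACTB) with the empty vector and let-7i. Of 10 epithelial markers with a probe set of their own, 7 were measured, KRT8, KRT18, CDH1, DSP, JUP, SFN and PKP3, while the basal keratins KRT5 and KRT14 and the keratin KRT16 were below the floor on both arrays. Among markers of fat cells 2 of 6 were measured (CIDEC and CFD, dim at 120 to 168), and ADIPOQ, PLIN1 and LEP were below the floor. The measured markers were 1 of 6 for liver (FGA), 2 of 6 for fibroblasts (COL1A1 and DCN) and 1 of 5 for leukocytes (CD3E). The liver marker ALB and the leukocyte marker PTPRC were below the floor on both arrays. The summed signal of a list was 390 in the control and 438 on the let-7i array for fat cells, 298 and 258 for liver, 616 and 856 for fibroblasts, 256 and 215 for leukocytes, and 70990 and 65254 for epithelium. Of the 7 measured epithelial markers 5 (71.4%) were lower, with a median log2 ratio of -0.19, close to the 71.4% and -0.21 of the sterol branch. JUP, a junction protein, was 1.65-fold lower (2840 and 1725), and CDH1, the adhesion protein E-cadherin, 1.34-fold lower (6785 and 5090). DCN was 1.97-fold higher (163 and 322) and CD3E 1.91-fold lower (173 and 90.4), both at dim signals. These 4 were picked out after their values were seen. The part of other cells in the differences of the members was not tested.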

How the data were processed

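Total RNA of 2 OECM1 cultures, 1 a group, was labelled as biotinylated cRNA, per the labels' protocols. The authors deposited signal intensities on a linear scale, from MAS5, as the submitters' processing notes name it, with its version and settings not given in the sources. Both arrays have the same mean after trimming 2% at each end, as a common scale gives, which hides any difference in total RNA. MAS5 is known to subtract mismatch probes, so dim values are noisy. No detection calls were used. The number of arrays limits the precision.

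Of 54675 probe sets, 41097 with 1 gene symbol in the platform annotation were used, 1801 with several symbols and 11777 with none were not. No symbol differed from RefSeq where the Entrez ID was in its table (41043 probe sets). The floor was the median signal of each array. A gene took its brightest probe set, and log2 ratios had their median subtracted, taken over the genes with both signals at or above it (the shift was 0.0036). A probe set below the floor on 1 array gave a bound against that floor. The SD of 1 probe set was taken from the difference in log2 ratio of a gene's 2 brightest measured probe sets, over the square root of 2.

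The members, lists and settings were chosen with earlier results of these data known. All members are named, with the up to 3 genes of each other list that have the largest absolute log2 ratio among those measured on both arrays. The markers were named as a check, and no test was run. Each result was also computed without centring, with lowess centring (3 iterations, fraction 0.3), after quantile normalization, with the 25th or the 65th percentile as floor, with the mean of a gene's probe sets, without probe sets whose IDs end in _s_at, _x_at or _a_at, and, for the branches or counts, without ACLY, ACAT2 and STARD4, with medians over probe sets and with a 2-fold threshold. The procedure was tested on simulated data. Known folds were given there only to brighter genes, with the same fold in all probe sets of a gene. Dim genes and probe sets that disagree were therefore not covered. The software was Python 3.11.15 with pandas 2.3.3, NumPy 2.4.6, Matplotlib 3.10.9 and statsmodels 0.14.6.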

Additional observations from a re-analysis of the deposited data

How the results depend on the processing

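The median of the sterol branch stayed below 0 under all 9 alternatives (-0.23 to -0.19), and 20 of 23 members kept their direction in every alternative that gave them a value. The exceptions were FDPS, INSIG1 and MVK, all near 0 as reported. Without shared probe sets 14 members were left, 6 higher and 7 lower with INSIG1 at 0, the fatty acid median was -0.0065, the difference of the branch medians was -0.18, and 0 members were at least 1.5-fold higher and 1 lower. The median of the 3 regulators changed sign with the floor set at the 25th percentile (0.0013) and with the mean of probe sets (0.0124). The count of members at least 1.5-fold lower was 1 in place of 2 with lowess centring and quantile normalization, where MVD fell short (log2 ratio -0.52 in both), with the mean of probe sets, where SREBF2 did (-0.41), under a 2-fold threshold, and when the 65th percentile was the floor. The floor at the 65th percentile took MVD and FADS2 out and left 0 members at least 1.5-fold higher, as did the 2-fold threshold. Among all genes measured, a floor at the 25th percentile put 1084 higher and 1616 lower past 1.5-fold, one at the 65th put 248 and 305, and 96 and 126 were past 2-fold. Against the brightest probe set, the mean of probe sets moved ACLY (0.49) to 0.25, MVK (0.00) to 0.31, ELOVL6 (-0.24) to -0.12, SCD (0.23) to 0.38, ACACA (0.20) to 0.32, DHCR7 (-0.04) to -0.18 and LSS (0.32) to 0.49. Dim signals limit MVD and FADS2. The cause of the other changes was not tested. No paired analysis was possible because each group has 1 array.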

Other observations

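Genes of sterol export and storage held the largest difference found among the lipid lists. ABCA1, the membrane pump that exports cholesterol, read 150 in the control and 450 with let-7i, which is 2.98-fold higher, and the log2 ratio was 1.58 in this probe set and 1.66 in the second. ABCG1, a related exporter, went the other way (156 and 94.0, 1.67-fold lower), as did NR1H3, the sterol-sensing nuclear receptor LXR alpha (137 and 80.6, 1.71-fold lower). All 3 lay in the dimmest of 4 bins of signal, where the SD of 1 probe set was 0.34. The let-7i signals of ABCG1 and NR1H3 were close to the floor of 79.5, and each had only 1 measured probe set. Of 12 measured genes in that list 6 were higher and 6 lower, with a median log2 ratio of 0.01.

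Among 11 measured genes of fatty acid activation and glycerolipid synthesis, 6 were higher and 5 lower, and the median log2 ratio was 0.02. DGAT2, which makes triglyceride, read 165 and 384, which is 2.32-fold higher (log2 ratio 1.22), and its second probe set gave 0.98. Its signal, too, fell in that dimmest bin. PLIN2, a coat protein of lipid droplets, was 1.55-fold lower (148 and 95.5), and PNPLA3, a lipid droplet hydrolase, was 1.39-fold lower (115 and 82.8), both close to the floor.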
